A study of Mus musculus with 72 samples.

Results

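MHC class II molecules carry peptides from proteins taken up by a cell to its surface, where CD4+ T cells read them. The genes described here were H2-Aa, H2-Ab1, H2-Eb1, Cd74, Ciita, H2-DMa, H2-DMb1 and H2-Oa, which are 8 of the 55416 genes in the deposited count table. They were chosen by name, as genes of class II antigen presentation, and each symbol matched 1 row. All 8 passed the filter on low counts in each of the 3 tissues.

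The study asked how 20% maternal food restriction alters the response of male offspring to a high fat diet. RNA was sequenced from 24 male FVB.129P2 mice, and each mouse gave epididymal white adipose tissue (eWAT), liver and pituitary, so that there were 72 libraries. FED mice were born to dams that ate freely, whereas CR20 dams received 20% less food from embryonic day 15 until weaning at day 21. From 8 weeks of age, offspring were kept on feed with 10% fat (CTRL) or 45% fat (HFD), and the labels give 10 or 16 weeks on it. The sequenced males are described in the study's text as those treated for 10 weeks. The 4 groups, FED-CTRL, FED-HFD, CR20-CTRL and CR20-HFD, held 6 mice each. No transgene was used. Library totals lay between 9842813 and 27601208 counts, with a median of 19705838.5. The adipocyte marker sum, which adds the CPM (counts scaled to the size of the library) of 6 marker genes, was at least 10266 CPM in every eWAT library and at most 112.6 CPM in liver and pituitary, and hepatocyte and pituitary endocrine markers were likewise highest in their own tissue. In eWAT, 6 libraries stood apart, with low adipocyte, high hepatocyte or high epididymis markers, and the members' counts are also given without them. They were FED-HFD mice 10, 13 and 23, CR20-CTRL mice 4 and 5, and CR20-HFD mouse 6.

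Class II molecules are made mainly by professional antigen-presenting cells such as dendritic cells, macrophages and B cells, and interferon gamma induces them in other cells. H2-Aa and H2-Ab1 encode the alpha and beta chains of the mouse I-A molecule, and H2-Eb1 encodes the beta chain of I-E. Cd74 encodes the invariant chain, which occupies the peptide groove until the molecule reaches the endosome. There H2-DM, encoded by H2-DMa and H2-DMb1, exchanges the remaining fragment for peptide, and H2-O, whose alpha chain H2-Oa encodes, restrains H2-DM. Ciita encodes the transactivator that switches this set of genes on, through factors bound to the X and Y boxes of their promoters.

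The promoters of the class II genes are shown because most members moved together in eWAT. The RefSeq promoter table (GRCm38.p6) holds 5 of the 8 members, all on chromosome 17. Both strands of the 250 bases before each start site were searched for an X box core, GNNACNGAT, and a Y box core, ATTGG. The matches shown do not overlap each other. Each line below gives the 160 bases before the start site, 5′ to 3′, with the cores found on the gene's strand in capitals.
H2-Eb1, chr17:34305707-34305866, plus strand: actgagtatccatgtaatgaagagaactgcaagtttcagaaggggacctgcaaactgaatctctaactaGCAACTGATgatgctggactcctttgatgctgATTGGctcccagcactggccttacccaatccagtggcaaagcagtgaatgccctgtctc
H2-DMb1, chr17:34153031-34153190, plus strand: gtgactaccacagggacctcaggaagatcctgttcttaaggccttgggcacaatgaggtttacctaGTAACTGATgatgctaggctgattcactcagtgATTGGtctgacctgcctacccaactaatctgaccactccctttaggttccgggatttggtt
H2-Oa, chr17:34092219-34092378, plus strand: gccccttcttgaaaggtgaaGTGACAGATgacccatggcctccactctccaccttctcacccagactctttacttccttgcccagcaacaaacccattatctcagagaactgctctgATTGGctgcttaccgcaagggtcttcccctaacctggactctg
H2-Aa, chr17:34287824-34287983, minus strand: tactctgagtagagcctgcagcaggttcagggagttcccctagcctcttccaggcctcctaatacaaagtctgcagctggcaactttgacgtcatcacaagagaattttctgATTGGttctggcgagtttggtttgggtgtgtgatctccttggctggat
H2-Eb1 held an X core that began 91 bases before its start site, followed by a Y core at 59 bases, and a further Y core on the opposite strand, not capitalised, lay 35 to 31 bases before the start. H2-DMb1 held the same pair, at 94 and 61 bases. An X core followed 15 to 35 bases later by a Y core occurred in 0.134% of the 32851 promoters in the table, while 6.53% held an X core and 33.8% a Y core, on either strand. H2-Oa held an X core at 140 bases and a Y core at 43 bases, farther apart than that window. H2-Aa held only the Y core, at 48 bases, and H2-DMa held a Y core at 198 bases before 1 of its 2 listed start sites and none before the other. These are matches of letters and not measured binding.

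All 8 members are protein-coding genes in GRCm39 (GENCODE M39). On chromosome 17, H2-Oa lies at 34311314 to 34314328, H2-DMa at 34338515 to 34358958, H2-DMb1 at 34372046 to 34379204 and H2-Ab1 at 34476663 to 34488393, all on the plus strand, within the class II part of the mouse major histocompatibility complex with H2-Aa and H2-Eb1. Ciita lies outside it, on the plus strand of chromosome 16 at 10297923 to 10347694, as does Cd74 on chromosome 18.

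In eWAT, 7 of the 8 members were higher in FED-HFD than in FED-CTRL mice, by 0.55 to 0.88 on the log2 scale. H2-Oa, at 0.98 with a wide error, did not pass the test. Here a gene passed when its p-value from edgeR's quasi-likelihood test, adjusted by Benjamini-Hochberg over the 15964 genes tested, was at most 0.055. Among all tested genes 8.09% passed as higher. With a log2 fold change of at least 0.58 as well, the size named in the study's methods, 6 members were called, against 6.42% of all genes. None of the 8 members reached a log2 fold change of 1, which the study used for its volcano plots and which is the size meant by called below, whereas 4.18% of all genes did so. The median log2 fold change was 0.73 for the members and -0.0016 for all tested genes.

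The chains of I-A were both higher. H2-Aa ran from 862.5 to 1114 CPM in FED-CTRL eWAT (median 948.2) and from 1219 to 2009 CPM in FED-HFD eWAT (median 1798). The groups did not overlap, since the lowest FED-HFD library, of mouse 11, exceeded the highest FED-CTRL library. The log2 fold change was 0.75 ± 0.11 (SE, n = 6 per group, adjusted p = 0.00212). A two-sided exact permutation test of the same 12 libraries gave p = 0.00216, the smallest it can give. H2-Ab1 ran from 362.5 to 548.6 CPM (median 489.2) and from 539.8 to 1039 CPM (median 839.4), with mouse 11 as the only FED-HFD library inside the FED-CTRL range. Its log2 fold change was 0.70 ± 0.15 (SE, adjusted p = 0.00587, edgeR).

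Counts for H2-Aa and its neighbour H2-Eb1 share a limit. In GRCm39 H2-Aa lies on the minus strand of chromosome 17 at 34493404 to 34506798, and H2-Eb1 on the plus strand at 34504236 to 34535648, so that they overlap by 2563 bases. The library kit preserved strand, but the strand setting of the counting is not given in the sources used here. H2-Eb1 was counted far lower, at 14.4 to 19.6 CPM in FED-CTRL (median 16.8) and 18.1 to 33.8 CPM in FED-HFD eWAT (median 25.7). Only mouse 11 overlapped the FED-CTRL range, and the log2 fold change was 0.55 ± 0.16 (SE, adjusted p = 0.0250, edgeR). The mice carried their own class II alleles, whereas reads were aligned to the reference genome, and what this did to the counts was not tested.

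Cd74, the invariant chain, had medians of 1069 CPM in FED-CTRL and 1800 CPM in FED-HFD eWAT. The FED-CTRL libraries ran from 775.2 to 1299 CPM and the FED-HFD libraries from 1227 to 2143 CPM, where mouse 11 was again the only one within the lower range. The log2 fold change was 0.66 ± 0.16 (SE, adjusted p = 0.0108, edgeR). Ciita, the transactivator, was read at 22.2 to 52.9 CPM in FED-CTRL (median 30.3) and 29.3 to 95.8 CPM in FED-HFD eWAT (median 58.9). In 4 of 6 FED-HFD libraries it exceeded every FED-CTRL library. The log2 fold change of Ciita was 0.88 ± 0.28 (SE, adjusted p = 0.0464, edgeR), and its exact permutation p was 0.0260.

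The chains of H2-DM rose as well. H2-DMb1 ran from 17.8 to 25.3 CPM in FED-CTRL (median 21.3) and from 26.1 to 55.9 CPM in FED-HFD eWAT (median 40.8), with no overlap. Its log2 fold change was 0.85 ± 0.18 (SE, adjusted p = 0.00529, edgeR). H2-DMa had medians of 52.1 and 83.6 CPM and a log2 fold change of 0.61 ± 0.19 (SE, adjusted p = 0.0379), and mouse 11, at 46.1 CPM, fell among the FED-CTRL libraries. Reads of H2-DMb1 cannot be fully told apart from those of its near-identical copy H2-DMb2. H2-Oa was close to the floor, with 8 to 105 counts per FED-HFD library and 10 to 46 per FED-CTRL library, and its log2 fold change of 0.98 ± 0.51 (SE) had an adjusted p of 0.228. H2-Aa and H2-DMb1 were thus the 2 members whose groups did not overlap, against 4.06% of all genes that were higher without overlap.

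**Figure D1:**
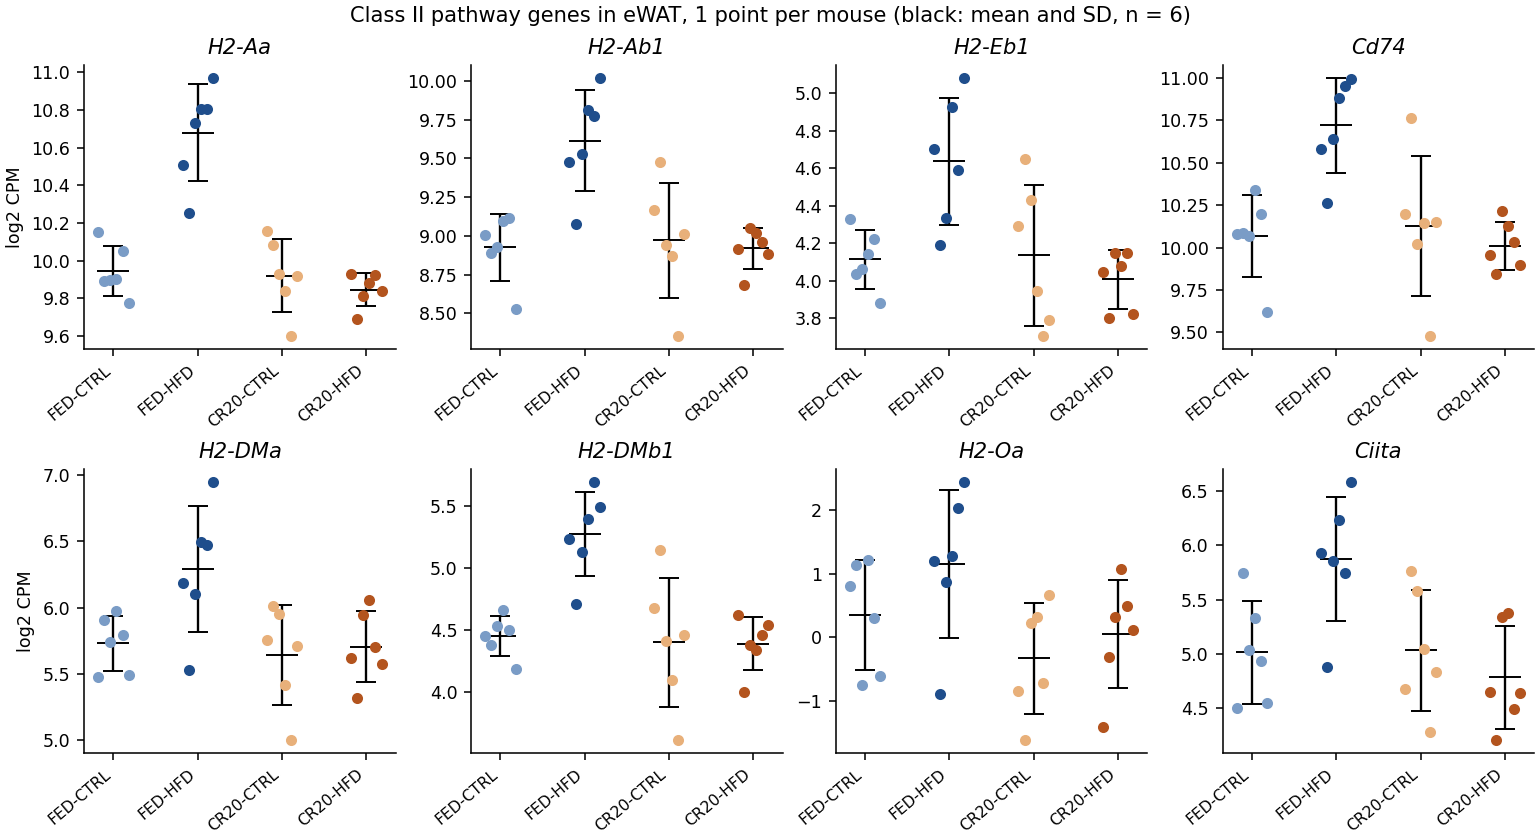
Log2 CPM of each member in eWAT, 1 point per mouse, for the 4 groups, with the mean and SD (n = 6) beside the points and a separate axis range in each panel. FED-HFD points of H2-Aa, H2-Ab1, H2-Eb1, Cd74 and H2-DMb1 all lie above every CR20-HFD point. Most CR20-HFD points lie in the range of the groups on the control diet.

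Among mice on the high fat diet, offspring of restricted dams had lower levels. In CR20-HFD eWAT 7 of the 8 members were below FED-HFD at adjusted p of at most 0.055, against 10.4% of all genes that were lower. All 7 were lower by at least 0.58 on the log2 scale, against 7.29% of all genes. Ciita alone both passed and was lower by at least 1, against 4.78% of all genes that did so. Because both comparisons use the same 6 FED-HFD libraries, their counts are not independent of each other. The members' median log2 fold change was -0.79, and that of all genes was 0.022.

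H2-Aa ran from 831.0 to 974.5 CPM in CR20-HFD eWAT (median 912.1), below all 6 FED-HFD libraries, and its log2 fold change was -0.85 ± 0.11 (SE, adjusted p = 0.000522, edgeR). H2-Ab1 ran from 413.5 to 524.0 CPM (median 490.5) and differed by -0.72 ± 0.15 (SE, adjusted p = 0.00327). For Cd74 the range was 910.9 to 1174 CPM (median 1023), with a log2 fold change of -0.72 ± 0.16 (SE, adjusted p = 0.00437). These 3 genes, H2-Eb1 (-0.66 ± 0.16, adjusted p = 0.00675) and H2-DMb1 (-0.91 ± 0.18, adjusted p = 0.00218) had no overlap between the groups, and the exact permutation p of each was 0.00216. No overlap in this direction was found for 4.17% of all genes.

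Ciita ranged from 18.4 to 41.2 CPM in CR20-HFD eWAT (median 24.3), and 4 of 6 libraries lay below every FED-HFD library. The log2 fold change of Ciita was -1.11 ± 0.28 (SE, adjusted p = 0.0108, edgeR). H2-DMa ran from 40.1 to 66.2 CPM (median 50.7) and overlapped the FED-HFD range through mouse 11, with -0.63 ± 0.19 (SE, adjusted p = 0.0265). H2-Oa, the restraint on H2-DM, had 4 to 42 counts per CR20-HFD library, and its -1.30 ± 0.52 (SE) did not pass (adjusted p = 0.0893).

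Within the offspring of CR20 dams the high fat diet moved no gene past the test in eWAT in edgeR (0.0% of genes), and no member in limma or DESeq2. At unadjusted p under 0.05 there were 962 genes (6.03%), none of them a member. Member log2 fold changes lay between -0.27 and 0.40. The 95% interval was -0.30 to 0.13 for H2-Aa and -0.82 to 0.28 for Ciita. The Ciita estimate in FED mice, 0.88 ± 0.28 (SE), lay outside that interval, which leaves out the error of the FED estimate. Between the groups on the control diet, CR20-CTRL and FED-CTRL, no gene passed in edgeR (0.0%) and no member in limma or DESeq2, with 1180 genes (7.39%) and no member at unadjusted p under 0.05. H2-Oa at -0.73 ± 0.53 (SE) was the farthest from 0, and the other members lay between -0.064 and 0.092. H2-Aa medians were 937.6 CPM in CR20-CTRL and 948.2 CPM in FED-CTRL.

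Whether the diet effect differed between maternal groups was tested directly, as the diet effect in CR20 mice minus that in FED mice. All 8 estimates were below 0, and 7 had an unadjusted p under 0.05, against 12.7% of all genes that were lower at that level. H2-Aa passed, at -0.83 ± 0.16 (SE, adjusted p = 0.0322, edgeR). Among all genes 2.34% passed in this direction. H2-Ab1 (-0.79, adjusted p = 0.0552), Cd74 (-0.82, adjusted p = 0.0581) and H2-DMb1 (-0.92, adjusted p = 0.0600) lay just outside the threshold, and Ciita was at -1.15 ± 0.40 (SE, adjusted p = 0.126). The adjusted p of H2-Aa ran from 0.0137 to 0.0720 when each mouse was left out in turn.

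**Figure D2:**
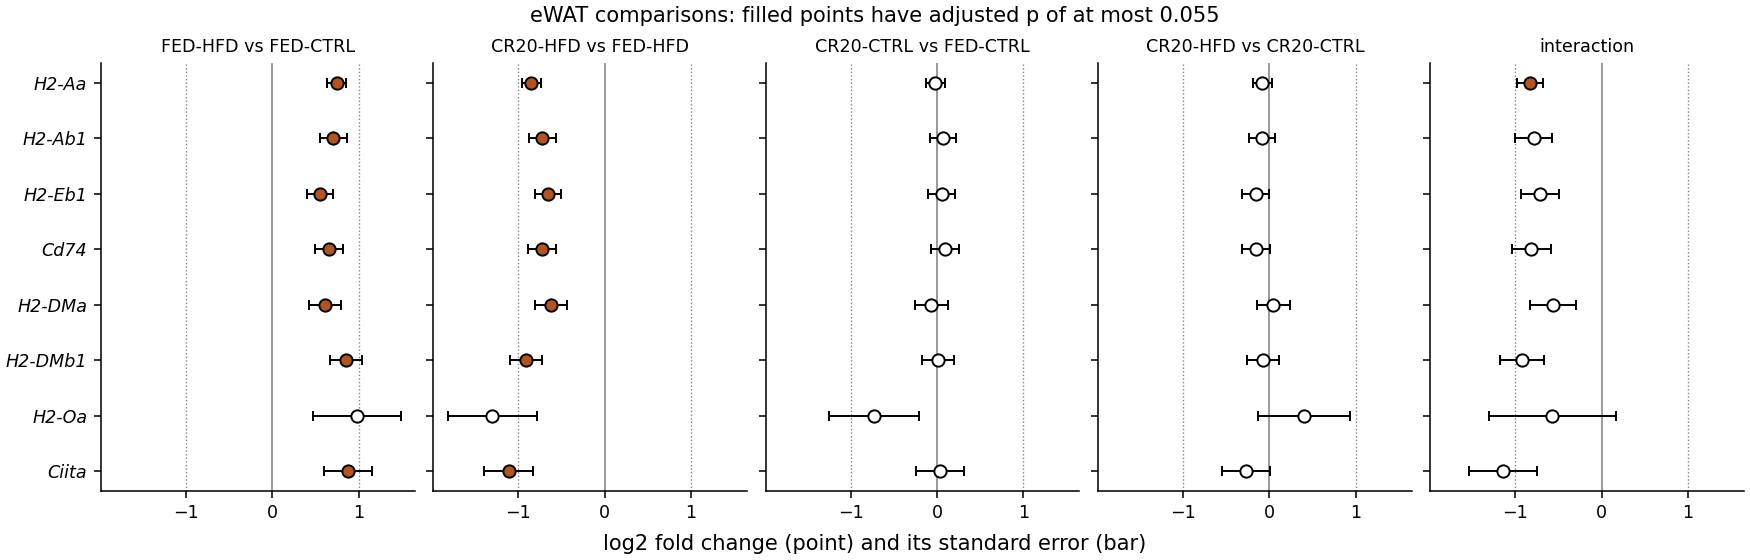
Log2 fold change of each member in eWAT for 4 group comparisons and for the difference between the diet effects, with bars for 1 SE and dotted lines at 1 and -1. Filled points have an adjusted p of at most 0.055 (edgeR, all tested genes): 7 members for the diet in FED offspring, 7 for CR20-HFD vs FED-HFD and H2-Aa in the difference.

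Some eWAT libraries differed in their cell type markers, and the fits were repeated without them. In bulk tissue, fewer cells of a type and less RNA per cell cannot be told apart. Mouse 23 (FED-HFD) had the highest macrophage marker sum, 10998 CPM against 3953 in the next library of its group. It was also highest in its group for H2-DMb1. For Cd74, mouse 23 was highest by CPM but mouse 40 by log2 CPM, the scale of the overlap checks. Mouse 40 was highest for the other 6 members. Without mouse 23 and CR20-CTRL mouse 5, the 2 libraries lowest in adipocyte markers, 6 members passed in FED-HFD vs FED-CTRL (6.07% of all genes were higher), 7 between the groups on the high fat diet (8.56% lower) and H2-Aa (adjusted p = 0.0401) in the difference of diet effects (1.14% lower). The member lost was H2-DMa (adjusted p = 0.0605). Without all 6 libraries that stood apart, 4 members passed in each of the first 2 comparisons, H2-Aa, H2-Ab1, Cd74 and H2-DMb1, against 2.97% of all genes higher and 4.42% lower. Ciita was then at 0.87 (adjusted p = 0.200) and -1.06 (adjusted p = 0.104), and H2-Aa in the difference was at -0.74 (adjusted p = 0.119), with no gene of 16229 passing in that difference.

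Most macrophage markers and some dendritic cell markers moved with the members in eWAT. The sums below are weighted to a few genes. By median CPM over the eWAT libraries, Lyz2 (946.7) weighed most in the macrophage sum, and Clec10a (81.7) and Itgax (30.7) in the dendritic cell sum. The summed macrophage markers had medians of 1632 CPM in FED-CTRL, 3314 in FED-HFD, 1770 in CR20-CTRL and 1449 in CR20-HFD. FED-HFD libraries ran from 2109 to 10998 CPM and CR20-HFD libraries from 1129 to 1993 CPM. Of the 10 markers, 8 were higher in FED-HFD than in FED-CTRL and 8 lower in CR20-HFD relative to FED-HFD, among them Cd68 (2.11 and -2.25) and Trem2 (2.66 and -2.63, log2 fold changes), while C1qa was at 0.25 and -0.16 and did not pass. Summed dendritic cell markers had medians of 144.0, 293.9, 155.0 and 132.9 CPM in the same order of groups, and 3 of 10 markers were higher and 6 lower in these comparisons. Flt3, a growth factor receptor of dendritic cells, was at 0.93 (adjusted p = 0.0253) and -1.50 (adjusted p = 0.00104), and Zbtb46, a dendritic cell transcription factor, was at -0.056 and -0.027 (adjusted p = 0.856 and 0.927). Summed B cell markers ranged widely within every group, from 10.2 to 141.4 CPM in FED-HFD, and 0 of the 8 markers passed for the diet in FED mice and 1 between the groups on the high fat diet. Markers of T cells and adipocytes did not pass in either comparison, and 2 of 4 tested hepatocyte markers were higher in FED-HFD and 2 lower in CR20-HFD. None of the macrophage or dendritic cell markers was at 0 in any eWAT library. What part of the members' change came with these cells was not tested.

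The other genes of the pathway were counted from lists of fixed membership. Enzymes that prepare peptides and class II molecules, and ligases that remove them, also differed: 5 of 7 were higher in FED-HFD than in FED-CTRL eWAT, and 6 of 7 were lower in CR20-HFD relative to FED-HFD. Ctss, cathepsin S, which trims the invariant chain, was at 2.01 ± 0.37 (SE, adjusted p = 0.00297) and then -2.25 ± 0.37 (adjusted p = 0.000691). Ifi30, a lysosomal thiol reductase, was at 1.38 and -1.45, and Lgmn, asparaginyl endopeptidase, at 1.37 and -1.39. Marchf1, a ubiquitin ligase that takes class II from the surface, was at 1.17 and -1.46. All 4 of these passed in both comparisons and in the test of the difference between diet effects, with the adjusted p of Ctss at 0.0322 in the last.

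Of 4 further class II genes, H2-Ea, which encodes the alpha chain of I-E, rose by 0.84 (adjusted p = 0.00336) and was lower by -0.90 (adjusted p = 0.00116). These are RNA levels, and whether the mice made I-E protein was not measured. H2-DMb2 was at 0.82 and -0.80 and passed both. H2-Ob and H2-Eb2 did not pass. Of 7 factors that bind the X and Y boxes and related elements, 1 was lower for the diet in FED mice, and 2 were higher and 1 lower in CR20-HFD relative to FED-HFD. Rfxank, a subunit of the X box factor RFX, was lower in FED-HFD than in FED-CTRL (-0.43, adjusted p = 0.0336) and higher in CR20-HFD relative to FED-HFD (0.50, adjusted p = 0.0120), and Rfxap, another RFX subunit, was at -0.038 and 0.36 (adjusted p = 0.796 and 0.00228). Nfya, a subunit of the Y box factor NF-Y, was at 0.58 (adjusted p = 0.0888) and -0.81 (adjusted p = 0.0161).

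Genes of interferon gamma signalling were not higher in FED-HFD than in FED-CTRL at the threshold, with 0 of 7 tested passing. Between the groups on the high fat diet, Jak1 (-0.26, adjusted p = 0.00852) and Ifngr2 (-0.30, adjusted p = 0.0467) passed as lower in CR20 offspring. Of 5 tested costimulation genes, Cd86, which gives T cells their second signal, passed as lower in CR20-HFD relative to FED-HFD (-0.54, adjusted p = 0.0271) and none passed in FED-HFD vs FED-CTRL. MHC class I presentation, the parallel route for proteins made inside the cell, had 0 of 13 genes past the test in either comparison, with median log2 fold changes of 0.28 and -0.13. H2-K1, a class I heavy chain, was at 0.28 (adjusted p = 0.122) and -0.13 (adjusted p = 0.471). Tests of whether class I and class II genes differed from each other were not made.

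In liver no member passed the test in any comparison in edgeR, although all 8 estimates for FED-HFD vs FED-CTRL were above 0. They ran from 0.56 to 1.88 with a median of 1.16, and 7 of 8 had an unadjusted p under 0.05, against 3.26% of all genes that were higher at that level. Of 13787 genes tested, 15 (0.109%) passed. Adjusted p-values of the members began at 0.295. A refit with limma voom with quality weights, the kind of test the study used, called 3 members as higher by at least 1. They were H2-Ab1 (1.46, adjusted p = 0.0249), H2-DMa (1.49, adjusted p = 0.0417) and Cd74 (1.40, adjusted p = 0.0467). Of all genes, 15 (0.109%) were called higher in the refit. The study reports fewer, so the refit did not reproduce its count.

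H2-Ab1 ran from 175.0 to 324.6 CPM in FED-CTRL liver (median 206.1) and from 302.7 to 958.4 CPM in FED-HFD liver (median 554.2). In 5 of 6 FED-HFD livers it exceeded all FED-CTRL livers, and the log2 fold change was 1.32 ± 0.37 (SE, adjusted p = 0.295, edgeR). Cd74 had medians of 389.5 and 958.3 CPM and a log2 fold change of 1.39 ± 0.40 (SE, adjusted p = 0.324). H2-Eb1 spread the most, from 2.89 to 23.4 CPM in FED-CTRL and from 8.94 to 74.9 CPM in FED-HFD liver, and its 1.88 ± 0.63 (SE) had an adjusted p of 0.464. The groups overlapped for all 8 members in liver.

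On the diet comparison within CR20 livers all 8 estimates were again above 0 and 3 had an unadjusted p under 0.05, against 3.82% of all genes higher at that level. The estimate of H2-DMb1, 0.066, turned negative without CR20-HFD mouse 6 or any of CR20-CTRL mice 47, 48 and 49. Cd74 was at 1.43 ± 0.40 (SE, adjusted p = 0.139), with medians of 317.5 CPM in CR20-CTRL and 735.1 CPM in CR20-HFD. The difference between the diet effects of the maternal groups was 0.043 for Cd74, with a 95% interval of -1.05 to 1.14, and -0.11 for H2-Aa, with an interval of -0.80 to 0.57. For Ciita the liver interval was -1.52 to 0.45. The eWAT estimates were -0.83 ± 0.16 (SE) for H2-Aa and -1.15 ± 0.40 for Ciita. The liver intervals rest on a normal approximation and leave out the error of the eWAT estimates, so they do not compare the tissues. Among livers of mice on the high fat diet, all 8 members were estimated lower in CR20-HFD, from -1.05 to -0.13, of which H2-Oa at -0.13 turned positive without FED-HFD mouse 13 or CR20-HFD mice 32 or 45 and with animal-number range as a covariate. Ciita (-0.85), H2-DMa (-0.94) and H2-DMb1 (-0.86) had an unadjusted p under 0.05, against 1.6% of all genes lower at that level. No gene passed there after adjustment (0.0%), and 0.537% of genes passed for the diet within CR20 livers. On the control diet, 6 of 8 members were also estimated lower in CR20 than in FED livers, with estimates from -0.65 to 0.086. None had an unadjusted p under 0.05, against 0.863% of all genes lower at that level. Estimates of at most 0.18 in size changed sign there in some alternatives. Macrophage marker sums in liver had medians of 277.3 CPM in FED-CTRL and 299.1 CPM in FED-HFD, and no macrophage or dendritic cell marker passed.

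In pituitary no gene passed at adjusted p under 0.05 in edgeR (0.0% in each comparison), and no member in limma or DESeq2. For FED-HFD vs FED-CTRL the 8 estimates lay between 0.10 and 0.90, with a median of 0.53, and 7 had an unadjusted p under 0.05, against 4.41% of all genes higher at that level. H2-Aa ran from 535.0 to 671.0 CPM in FED-CTRL pituitary (median 594.9) and from 698.2 to 998.2 CPM in FED-HFD pituitary (median 817.3), with no overlap. The log2 fold change was 0.50 ± 0.13 (SE, adjusted p = 0.184), and the exact permutation p was 0.00216. Cd74 did not overlap either, at 993.1 to 1383 CPM and 1420 to 2197 CPM, with 0.51 ± 0.14 (SE, adjusted p = 0.207). Higher without overlap were 0.144% of all genes in that comparison. Ciita had the largest estimate, 0.90 ± 0.31 (SE, adjusted p = 0.326), with medians of 17.5 and 27.7 CPM and overlapping groups.

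Within CR20 pituitaries the diet estimates of all 8 members were above 0, between 0.18 and 0.54, and 4 had an unadjusted p under 0.05, against 2.74% of all genes higher. H2-Aa was at 0.43 ± 0.13 (SE, adjusted p = 0.539). The difference of the diet effects for H2-Aa was -0.068, with a 95% interval of -0.42 to 0.28. The eWAT estimate was -0.83 ± 0.16 (SE), an error that this interval leaves out. Among mice on the high fat diet, 7 of 8 members were estimated lower in CR20-HFD pituitary, 4 of them at unadjusted p under 0.05, against 3.44% of all genes lower at that level, with Ciita the farthest at -0.85 (adjusted p = 0.591). No test compared the tissues with each other on these differences. Between the groups on the control diet, all 8 members were also estimated lower in CR20 than in FED pituitary, from -0.40 to -0.038. None had an unadjusted p under 0.05, against 6.68% of all genes lower at that level. Estimates of at most 0.052 in size changed sign there in some alternatives. Summed macrophage markers had medians of 168.7 CPM in FED-CTRL and 206.1 CPM in FED-HFD pituitary.

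**Figure D3:**
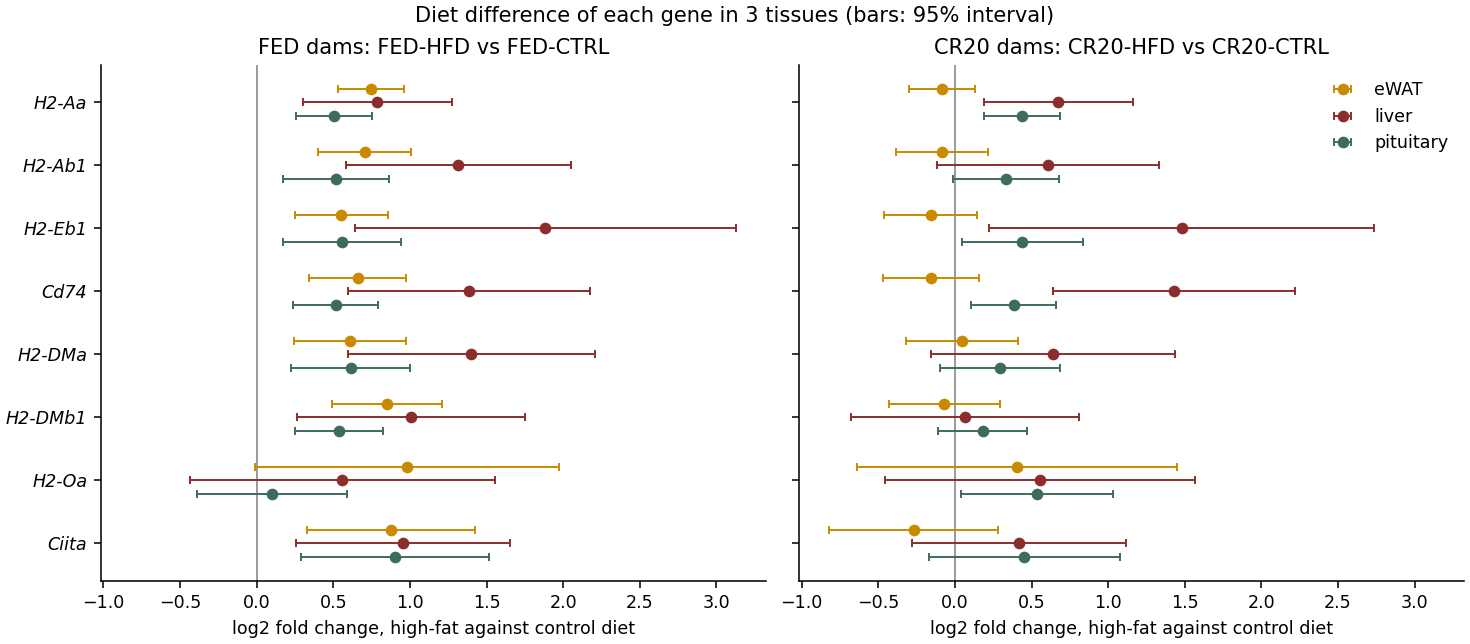
Log2 fold change of HFD against CTRL for each member in eWAT, liver and pituitary, with 95% intervals, for offspring of FED dams and of CR20 dams. In eWAT the FED intervals lie above 0 for all members but H2-Oa and the CR20 intervals span 0. In liver and pituitary the estimates of both maternal groups lie above 0. There too, the CR20 intervals of H2-Ab1, Ciita, H2-DMa and H2-DMb1 span 0, as does that of H2-Oa in liver. The FED intervals of H2-Oa span 0 in both of these tissues.

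Levels per length, as CPM per kilobase of exon (RPKM), put Cd74 and the I-A chains far above the other members in all 3 tissues of FED-CTRL mice. Cd74 was highest, at 354.4 ± 53.2 RPKM in eWAT, 233.3 ± 95.6 in liver and 423.8 ± 57.2 in pituitary (SD, n = 6). H2-Aa (189.5 ± 17.6 RPKM in eWAT) and H2-Ab1 (157.1 ± 20.9) came next. H2-DMa and H2-DMb1 lay at 10.2 ± 1.4 and 10.7 ± 1.1 RPKM in eWAT, within each other's SD. With the length of the longest transcript in place of all exons they lay apart, at 21.2 ± 2.9 and 12.8 ± 1.3 RPKM, and H2-Ab1 (276.0 ± 36.8) lay above H2-Aa (252.4 ± 23.4), so these orders depend on the length used. Lower still by exon length were H2-Eb1 at 5.48 ± 0.58 RPKM, Ciita at 2.52 ± 0.87 and H2-Oa at 0.73 ± 0.40. H2-Eb1 thus lay far below the I-A chains, with the limits of its counting given above.

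Between tissues of the same FED-CTRL mice, few members differed by 1 or more on the log2 scale. The test kept the mouse as a block and scaled the libraries of the 3 tissues together by TMM. H2-Aa was higher in eWAT than in liver by 1.12 ± 0.11 (SE, adjusted p = 1.13e-08), where 48.6% of 17255 genes were called in either direction. H2-Oa was higher in pituitary than in liver by 1.41 ± 0.38 (SE, adjusted p = 0.00180), and H2-Eb1 was lower there by -1.07 ± 0.29 (adjusted p = 0.00227), where 61.5% of genes were called. H2-Eb1 was higher in eWAT than in pituitary by 1.33 ± 0.28 (SE, adjusted p = 0.000236), where 54.3% were called. H2-Ab1, between 130.1 and 157.1 RPKM, and H2-DMa, between 10.2 and 11.2 RPKM, did not pass in any of the 3 comparisons. RNA was extracted by another method in liver than in the other tissues, which cannot be told apart from the tissue. The differences also depend on the scaling between tissues that differ in so many genes. By raw library totals, median H2-Ab1 was 489.2 CPM in eWAT and 206.1 CPM in liver, and median Cd74 was 1069 and 389.5 CPM. The fit with TMM put eWAT above liver by only 0.28 for H2-Ab1 and 0.63 for Cd74 on the log2 scale.

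**Figure D4:**
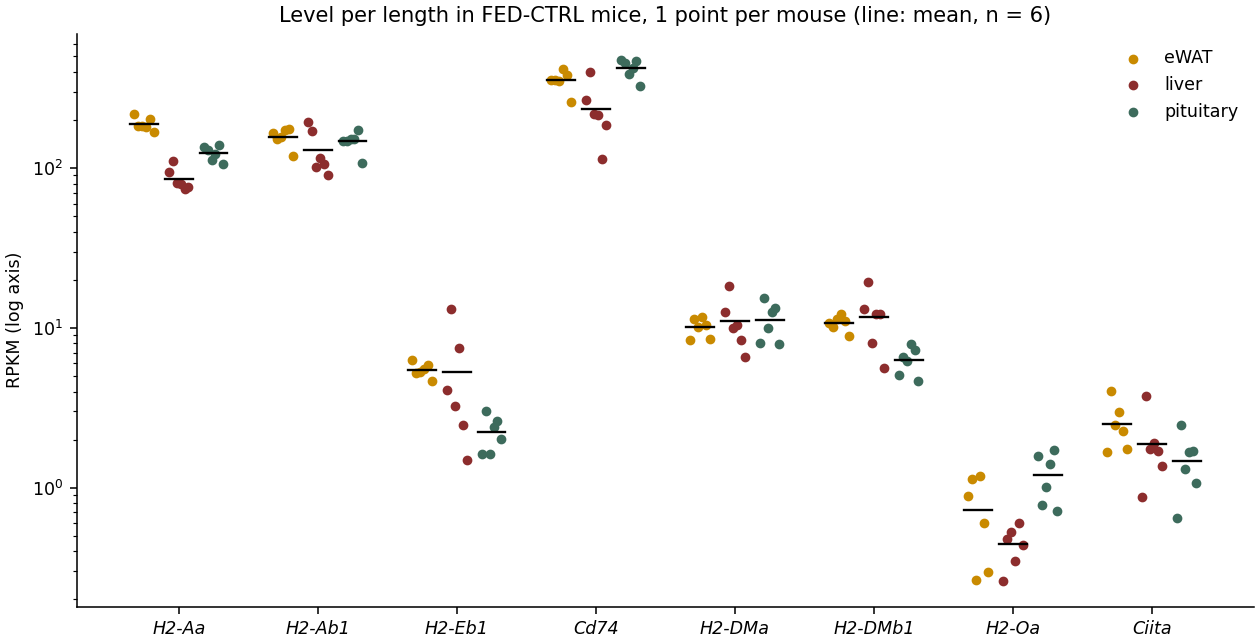
RPKM of each member in FED-CTRL mice on a log axis, 1 point per mouse, for eWAT, liver and pituitary. Cd74, H2-Aa and H2-Ab1 lie far above the other members in every tissue, and H2-Oa lies lowest.

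Within a tissue most members, though less so H2-Oa, rose and fell together from mouse to mouse. After subtracting group means, the median Pearson r over the 28 pairs of members was 0.74 in eWAT, 0.57 in liver and 0.66 in pituitary (24 libraries each). The highest in eWAT was 0.96, between H2-Ab1 and Cd74. The lowest r was 0.16 in eWAT, -0.0096 in liver and 0.18 in pituitary, each in a pair with H2-Oa. Without H2-Oa the lowest was 0.48, 0.31 and 0.30. Outside the members, the genes with the highest r to the mean of H2-Aa, H2-Ab1 and Cd74 in eWAT were H2-DMb2 (0.94 over all libraries, 0.93 after subtracting group means), Lair1 (0.92 and 0.81), Irf8 (0.89 and 0.72), Themis2 and Sdc3. In liver they were Fcer1g (0.91), Ifi30, Cmtm7, Fgd2 and Ly6a, and in pituitary C4b (0.94), C1qa (0.92), H2-DMb2, C1qc and Cd52. For Ciita in eWAT they were H2-Ea (0.89), Adar and Parp14. These correlations share library and depth and are given as a description.

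The levels of single mice were then compared between tissues, a comparison made after the values were seen. Each mouse was scored by its log2 CPM minus the mean of its group, and p-values came from 100000 permutations of mice within groups, adjusted over all genes measured in both tissues. Between liver and pituitary, 5 of 8 members passed at adjusted p under 0.05 with a positive r, against 0.611% of 12595 genes. Ciita had r = 0.92 (rho = 0.90, permutation p = 1e-05, the smallest these permutations can give, adjusted p = 0.00450), H2-Ab1 0.87 (rho = 0.87) and H2-DMa 0.85 (rho = 0.83), the last 2 with the same adjusted p. H2-DMb1 (r = 0.77, rho = 0.80, adjusted p = 0.0325) and H2-Eb1 (r = 0.74, rho = 0.75, adjusted p = 0.0102) followed. Without the 2 mice farthest from the median, r was 0.87 for Ciita, 0.81 for H2-Ab1, 0.85 for H2-DMa, 0.79 for H2-DMb1 and 0.70 for H2-Eb1. H2-Aa (r = 0.71, rho = 0.66, adjusted p = 0.0934), Cd74 (r = 0.52, rho = 0.55, adjusted p = 0.407) and H2-Oa (r = 0.0044, rho = 0.088, adjusted p = 0.995) did not pass.

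Agreement with eWAT was weaker. H2-DMa alone passed between eWAT and pituitary (r = 0.78, rho = 0.75, adjusted p = 0.0496, r = 0.72 without the 2 farthest mice), where 0.195% of 14372 genes did. Between eWAT and liver no member passed, with 0.0859% of 12801 genes passing and 11 of them in all. Ciita was at 0.72 (adjusted p = 0.108) with pituitary and 0.67 (adjusted p = 0.236) with liver.

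The Ciita values of single mice show cases with and without such agreement. FED-HFD mouse 40 had the highest Ciita level of its group in all 3 tissues, at 95.8 CPM in eWAT, 67.7 in liver and 76.3 in pituitary. FED-HFD mouse 11 had the lowest, at 29.3, 8.84 and 11.9 CPM in the same order. In contrast, CR20-HFD mouse 32 was the highest of its group in eWAT, at 41.2 CPM, and the lowest in liver, at 10.3 CPM. Between eWAT and liver the Ciita r was 0.036 within the CR20-HFD group. It was 0.93 within FED-CTRL, 0.87 within FED-HFD and 0.62 within CR20-CTRL mice. Among FED-CTRL mice, mouse 15 was the highest in each tissue, at 52.9, 28.5 and 32.5 CPM. Mice of 1 litter or cage may share such a level, and litter, cage and mouse cannot be told apart, because the labels give neither.

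Between liver and pituitary 4 of 13 genes of class I presentation also passed, and the genes named here were chosen after their values were seen. Tap1, part of the peptide transporter for class I, had r = 0.86 between liver and pituitary (rho = 0.87, adjusted p = 0.00450). Irf1, an interferon-induced factor, passed in all 3 pairs, with r = 0.81 between eWAT and liver (rho = 0.80, adjusted p = 0.0384), 0.86 between eWAT and pituitary (rho = 0.82, adjusted p = 0.0131) and 0.82 between liver and pituitary (rho = 0.82, adjusted p = 0.00741). None of the macrophage, dendritic, B or T cell markers passed in any pair of tissues. Pituitary libraries held at most 8.36 CPM of summed hepatocyte markers, against at least 62329 CPM in liver.

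**Figure D5:**
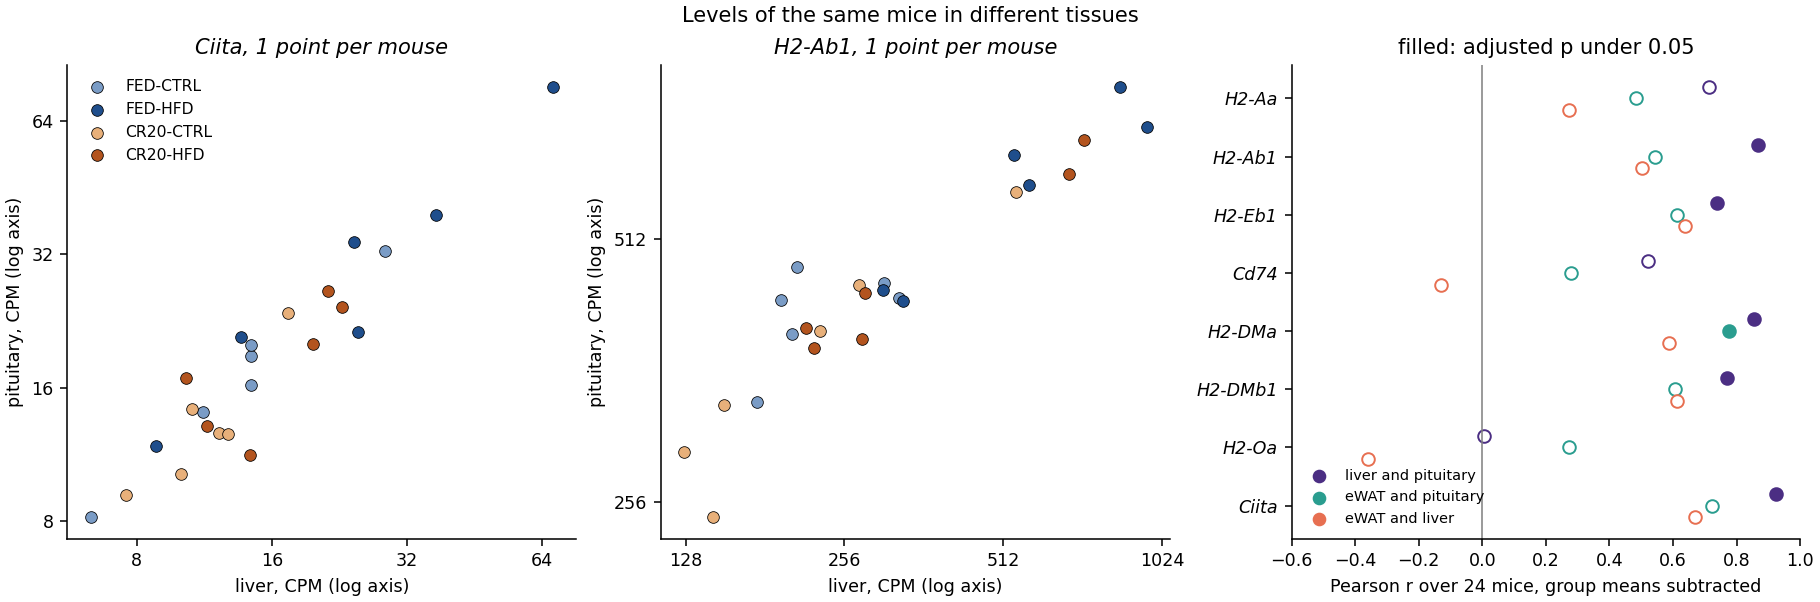
Ciita and H2-Ab1 CPM in liver against pituitary on log axes, 1 point per mouse, and the within-group r of each member for the 3 pairs of tissues, with filled points at adjusted p under 0.05. Ciita mouse 40 lies at the top right at 67.7 and 76.3 CPM, and the filled points are 5 members between liver and pituitary and H2-DMa between eWAT and pituitary.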

How the data were processed

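RNA from the 72 samples was sequenced. The labels name a stranded total RNA kit, and the study's methods also name a stranded mRNA kit. The authors ran FastQC and Trimmomatic, aligned reads with STAR to GRCm39 (Ensembl 104) and counted them with featureCounts of Subread. The deposited values are raw whole-number counts per gene. Each tissue was fitted separately in edgeR 4.0.16 (R 4.3.3) with TMM scaling, filterByExpr and 4 group means. Quasi-likelihood p-values were adjusted by Benjamini-Hochberg over all genes tested. A gene was called at adjusted p of at most 0.055 with an absolute log2 fold change of at least 1 in eWAT and liver, and at adjusted p under 0.05 in pituitary. CPM values and marker sums used raw library totals. Log2 CPM (prior count 2), the exact permutation tests and the checks of overlap used TMM library sizes. The order of libraries can therefore differ between CPM and log2 CPM. RPKM used CPM with TMM sizes over all 72 libraries. Exon lengths came from GENCODE M39. The statistics were tested on simulated data. Groups within a tissue hold different mice, and animal numbers pair the tissues of 1 mouse. Nothing names litters, so p-values measure the spread between these mice. limma 3.58.1, DESeq2 1.42.0, other filters, thresholds and scalings, and each mouse left out were tried as alternatives. Removing libraries that stood apart, the adjusted p alone and the agreement between tissues were added after the data were seen. The members, gene lists and named genes (up to 4 per list by smallest p in CR20-HFD vs FED-HFD eWAT, and the 5 genes most correlated per tissue) were chosen with earlier results of these data known. Single values of some genes of these lists are not reported here.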

Additional observations from a re-analysis of the deposited data

Results flagged for a closer look

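Single mice stood apart in 7 of the values examined, by the gap to the nearest library of their group over the range of that group. In 96 groups of 6 mice tested over the members, H2-Ab1 in FED-CTRL pituitary had such a mouse, with a ratio of 0.680, above Dixon's 95% critical value for a group of 6: mouse 42 lay at 8.27 log2 CPM and the next library at 8.73. Among 40 groups tested over marker sums, 6 exceeded that value. About 1 in 20 groups would do so if values were normal and groups independent. The sums are CPM without a log, and several of these cases are the same library, so that rate does not apply to them. In FED-HFD eWAT, mouse 23 was highest in macrophage markers (ratio 0.793, 10998 against 3953 CPM) and in dendritic cell markers (0.729, 860.1 against 381.9 CPM), and lowest in adipocyte markers (0.736, 10266 against 21276 CPM). Hepatocyte markers were highest in eWAT of FED-HFD mouse 10 (0.797, 695.9 against 147.0 CPM) and of CR20-CTRL mouse 5 (0.964, 739.9 against 48.6 CPM). Adipocyte markers were highest in pituitary of FED-HFD mouse 10 (0.985, 112.6 against 7.76 CPM).

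The diet effect on H2-Aa in eWAT differed between maternal groups, by -0.83 on the log2 scale (adjusted p = 0.0322, edgeR). It was 0.75 in offspring of FED dams and -0.083 in offspring of CR20 dams. The call was lost with limma voom, without the 6 libraries that stood apart (adjusted p = 0.119) and in 9 of 24 fits that left out 1 mouse, where the adjusted p reached 0.0720.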

How the results depend on the processing

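In eWAT every member kept its direction in CR20-HFD vs FED-HFD, in FED-HFD vs FED-CTRL and in the difference between diet effects under all alternatives run. The sensitive value was the number of members passing in that difference, 1 as reported. It was 0 with limma voom, 5 with DESeq2, 2 with DESeq2 size factors in edgeR, 4 with a filter of over 1 CPM in 6 libraries, 2 with animal-number range as a covariate and 0 without the 6 libraries that stood apart. Leaving out 1 mouse gave 0 to 6: it was 6 without FED-HFD mouse 11, 5 without CR20-CTRL mouse 48, 4 without FED-HFD mouse 10, 2 without CR20-CTRL mouse 33, and 0 without CR20-CTRL mice 5, 47 or 49, FED-CTRL mice 15, 16, 41 or 42, or CR20-HFD mice 31 or 32.

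Members called in eWAT FED-HFD vs FED-CTRL, 0 as reported, became 6 with a log2 fold change of 0.58 and 7 by adjusted p alone, and 0 to 1 with 1 mouse left out (1 without FED-HFD mouse 11 or FED-CTRL mouse 15). Those passing by adjusted p, 7, became 4 without the 6 libraries and 4 to 7 with 1 mouse left out (4 without FED-HFD mouse 13 or FED-CTRL mouse 42). In CR20-HFD vs FED-HFD the 1 called member became 2 with animal-number range, 0 without the 6 libraries, 7 at 0.58, 7 by adjusted p alone, and 0 to 3 with 1 mouse left out (3 without FED-HFD mouse 11, 0 without FED-HFD mouse 40). The 7 passing by adjusted p became 4 without the 6 libraries. The call in the difference between diet effects, 0, became 1 at 0.58, 1 by adjusted p alone, and 0 to 2 with 1 mouse left out (2 without FED-HFD mouse 11, 1 without CR20-CTRL mouse 48).

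In liver, 0 members became 3 in FED-HFD vs FED-CTRL with quality weights, and 1 in CR20-HFD vs CR20-CTRL with DESeq2 or without CR20-HFD mouse 32, so that leaving out 1 mouse gave 0 to 1. In pituitary FED-HFD vs FED-CTRL, 0 became 2 without a filter. H2-Oa there turned from 0.10 to -0.000444 with quality weights and ran from -0.012 to 0.24 with 1 mouse left out. Between tissues, H2-Ab1 in eWAT vs pituitary turned from 0.061 to -0.017 with DESeq2 size factors. With 1 mouse left out, H2-DMa ran from -0.19 to 0.026 in eWAT vs liver and from -0.052 to 0.19 in pituitary vs liver, and H2-DMb1 from -0.23 to 0.099 in eWAT vs liver. Members called ran from 1 to 2 in pituitary vs liver (1 without mouse 24) and in eWAT vs pituitary (2 without mouse 15). The fit of the tissue comparison with no replicate block called 1, 2 and 1 members, as with the block. In liver, H2-DMb1 in CR20-HFD vs CR20-CTRL (0.066) and H2-Oa between the groups on the high fat diet (-0.13) changed sign in 4 alternatives each. The cause of these changes was not tested, and H2-Oa is limited by its low counts.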
